A study of Rattus norvegicus and Mus musculus with 251 samples.

Results

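The genes of the 4 opioid peptide precursors, Penk, Pdyn, Pnoc and Pomc, were followed through the mouse prefrontal cortex (PFC) and nucleus accumbens (NAc) during and after oral morphine. They were chosen by symbol, and each symbol matched 1 of the 46078 gene identifiers in the mouse table of read counts, so all 4 members were measured. All 4 passed the filter on low counts in every fit. Each library was total RNA from a 0.5 mm tissue punch of a C57BL/6J mouse, an inbred strain with no engineered allele named in the labels.

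The mice drank either saline or a morphine solution, and each region had 4 groups. Saline mice gave 6 PFC and 7 NAc libraries. The group labelled chronic morphine gave 8 libraries in each region. Mice taken 24 h after morphine gave 9 in each, and mice taken 2 weeks after it gave 7 PFC and 8 NAc libraries. By their labels, all groups held both sexes, with 3 to 5 libraries of a sex. The labels give no age, no morphine dose and no length of drinking. They name neurons as the cell type, while the protocol describes punches and no sorting. A PFC and a NAc library with the same number may come from 1 mouse, which the labels do not say, and p-values measure only the spread between these libraries. The main fits over both regions treated such libraries as independent.

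Opioid peptides are cut from large precursor proteins in secretory vesicles by prohormone convertases and carboxypeptidase. Proenkephalin (Penk) gives the enkephalins, which act on delta and mu receptors, prodynorphin (Pdyn) gives the dynorphins, which act on kappa receptors, and prepronociceptin (Pnoc) gives nociceptin, the ligand of the Oprl1 receptor. Proopiomelanocortin (Pomc) gives beta-endorphin, together with melanocortins and corticotropin, and is best known from the pituitary and the arcuate hypothalamus. In the striatum, enkephalin belongs mainly to projection neurons with dopamine D2 receptors and dynorphin to those with D1 receptors, while in cortex all of these genes but Pomc are mostly known from scattered neurons, many of them GABAergic.

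The peptides share a short core, and the number of copies a precursor holds differs between the genes. The coding sequence around each copy is shown because it is what makes a transcript of Penk carry more opioid units than one of the other precursors. Sequences were read from the GENCODE M21 transcript sequences for GRCm38 with the coding models of that release, on the strand of the gene. Each shows 5′ to 3′ the codons of the 2 residues before the core, then in capitals the codons of its 4 shared residues, then the next residue and the 2 after it. In capitals stand tyrosine, glycine, glycine and phenylalanine, with phenylalanine in place of tyrosine in Pnoc. The codon after the capitals codes for methionine in Met-enkephalin, leucine in Leu-enkephalin and threonine in nociceptin.
Penk copy 1: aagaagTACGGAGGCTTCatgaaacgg
Penk copy 2: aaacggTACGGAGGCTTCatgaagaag
Penk copy 3: aagaggTATGGCGGCTTCatgaagaag
Penk copy 4: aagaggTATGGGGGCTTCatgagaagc
Penk copy 5: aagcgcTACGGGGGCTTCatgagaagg
Penk copy 6: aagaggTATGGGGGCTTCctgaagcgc
Penk copy 7: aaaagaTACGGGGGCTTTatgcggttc
Pdyn copy 1: aaacgcTATGGCGGCTTTttgcgcaaa
Pdyn copy 2: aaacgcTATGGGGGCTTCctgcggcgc
Pdyn copy 3: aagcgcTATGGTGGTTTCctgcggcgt
Pnoc copy 1: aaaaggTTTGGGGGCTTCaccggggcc
Pomc copy 1: aagcgtTACGGTGGCTTCatgacctcc

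Penk held 7 copies, 6 of the Met-enkephalin kind and 1 of the Leu-enkephalin kind, all in exon 2 of 2 between chr4:4133842-4134354 on the minus strand. Pdyn held 3 copies, all of the Leu-enkephalin kind, in exon 4 of 4 between chr2:129688067-129688258 on the minus strand. Pnoc had 1 nociceptin core in exon 3 of 4 at chr14:65404872-65404898 on the minus strand. Pomc had 1 core of the Met-enkephalin kind, which opens beta-endorphin, in exon 3 of 3 at chr12:3960367-3960393 on the plus strand. Every copy followed a pair of basic residues, the usual cleavage mark of the convertases. A basic pair also stood right after the core in 5 of the 7 Penk copies and in all 3 Pdyn copies, and in neither Pnoc nor Pomc. Where a peptide ends cannot be read from this pair alone. These are features of the reference sequence, and the read counts do not measure peptides.

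The genes themselves lie at chr4:4133531-4138819 (Penk, ENSMUSG00000045573), chr2:129686565-129699844 (Pdyn, ENSMUSG00000027400), chr14:65400673-65425472 (Pnoc, ENSMUSG00000045731) and chr12:3954951-3960642 (Pomc, ENSMUSG00000020660). All are protein-coding. Penk overlaps A830012C17Rik on the opposite strand, and since use of strand in the counting is not given, reads of the overlap cannot be assigned with certainty. The other 3 overlap no annotated gene.

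Library totals ran from 5182601 to 43963295 counts in genes. PFC library number 10 (2 weeks, female) stood apart with the lowest total, 21.1% of its reads not aligned and 10563 genes detected, while every other library had at least 22387525 counts. Libraries number 27 of both regions (chronic, labelled female) did not match their labelled sex. By Xist and Y-linked reads each chronic group held 2 females and 6 males, and results were also computed without number 27. Cortical marker genes fitted the PFC label, with a summed level of 1798 to 4523 counts scaled to the library total (CPM) over 8 markers, against 44.7 to 728 in NAc. The 7 markers of striatal projection neurons summed to 340 to 597 CPM in PFC and to 463 to 7955 CPM in NAc. In NAc libraries number 6 (saline) and 25 (chronic) that sum lay within the PFC range, at 463 and 553 CPM. All 8 markers of hypothalamus and septum had counts in NAc, where they summed to 8.74 to 1582 CPM against 0 to 2.02 in PFC. Their part in the results below was not tested.

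Levels were compared between the genes as CPM per kilobase of exon, because the members differ in exon length (1318 to 2887 bases). Penk had the highest level, followed by Pdyn, Pnoc and Pomc, in both regions. In PFC the medians over 30 libraries were 27.5 for Penk, 11.6 for Pdyn, 4.56 for Pnoc and 0.723 for Pomc. In NAc the medians over 32 libraries were 681 for Penk, 69.7 for Pdyn, 5.03 for Pnoc and 1.38 for Pomc. Penk exceeded Pdyn within every library, by a median ratio of 2.29 in PFC (1.11 to 4.94) and 9.56 in NAc (5.86 to 12.9). Pdyn exceeded Pnoc in 29 of 30 PFC and 31 of 32 NAc libraries. Neighbours at the lower end overlapped in NAc, where Pnoc exceeded Pomc in 27 of 32 libraries and the ratio ran from 0.113 to 20.7.

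**Figure D1:**
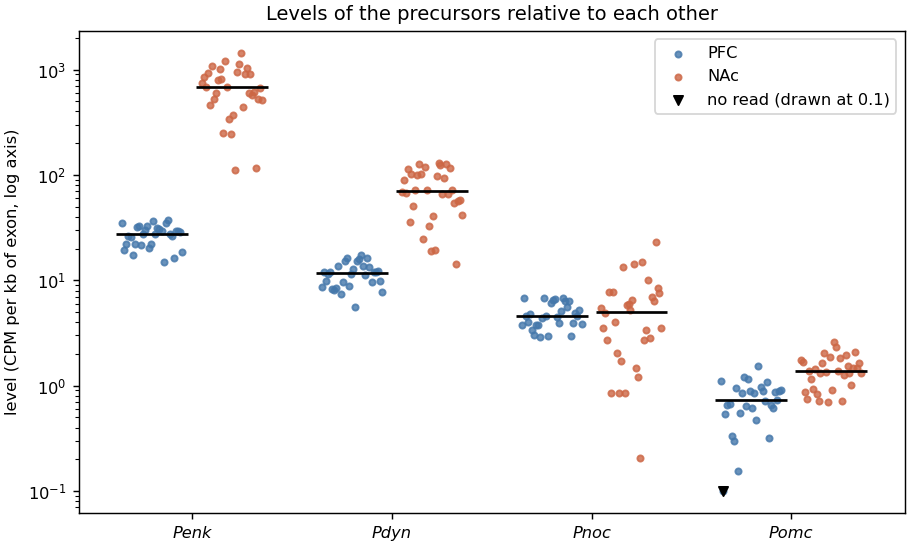
Level of each precursor in every library, as CPM per kilobase of exon on a log axis, with PFC in blue, NAc in orange and black bars at the regional medians. Penk in NAc, at a median of 681, lies far above the other genes, and the PFC library with no Pomc read is drawn at 0.1 as a triangle.

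The first comparison asked how the regions differ in mice without morphine. Penk and Pdyn were higher in saline NAc than in saline PFC, Penk by the larger fold change, Pomc was higher by a small margin that rested on the choice of libraries, and Pnoc did not pass the test. Levels below are log2 CPM, the logarithm of the scaled counts of 1 gene across libraries.

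Penk, the enkephalin precursor, had 4.74, 5.58 and 5.85 log2 CPM as the lowest, median and highest value of the 6 saline PFC libraries. In the 7 saline NAc libraries it had 7.58, 9.86 and 10.5. The groups did not overlap, and no NAc library of any group (7.52 or more) came down to the highest PFC library (5.93). The difference was 18.7-fold (95% interval 10.9 to 32.3), or 4.23 ± 0.39 in log2 (SE, edgeR quasi-likelihood test, Benjamini-Hochberg adjusted p = 1.2e-12).

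Pdyn, the dynorphin precursor, had 4.65, 5.06 and 5.15 log2 CPM in saline PFC and 5.37, 7.36 and 8.09 in saline NAc. These groups did not overlap either, although NAc number 6 at 5.37 was close to the PFC libraries. The difference was 5.08-fold (95% interval 3.05 to 8.44), or 2.34 ± 0.37 in log2 (SE, edgeR adjusted p = 8.19e-07). Over all treatments, 1 of 32 NAc libraries fell within the PFC range, which reached 5.66.

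Pomc was low in both regions, at 24 to 36 reads in saline PFC and 35 to 92 in saline NAc. Its level was -0.20, 0.15 and 0.61 log2 CPM in saline PFC and 0.48, 1.01 and 1.49 in saline NAc. The lowest NAc library lay within the PFC range. The difference was 1.88-fold (95% interval 1.14 to 3.09), or 0.91 ± 0.36 in log2 (SE, edgeR adjusted p = 0.0415). This call was lost in 9 of the 13 fits that each left out 1 saline library, with adjusted p up to 0.0949 (NAc numbers 1, 2, 6 and 7 and PFC numbers 2, 3, 5, 6 and 7), and without NAc numbers 6 and 25 (adjusted p = 0.0769). Of 6 pituitary markers, 4 had counts in saline NAc and Cga and Pitx1 had none, with a sum of at most 0.458 CPM. The 8 markers of hypothalamus and septum summed to 15.5 to 503 CPM in saline NAc and to 0.56 to 1.73 CPM in saline PFC. Among the saline NAc libraries, number 6 was highest both in that sum and in Pomc. A source of Pomc reads outside the 2 regions was not tested.

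Pnoc, the nociceptin precursor, had 3.04, 3.28 and 3.78 log2 CPM in saline PFC and 2.56, 3.92 and 5.62 in saline NAc. The NAc libraries lay on both sides of the PFC range. The difference was 0.94 ± 0.54 in log2 (SE, 95% interval -0.14 to 2.02, edgeR adjusted p = 0.172). Without NAc numbers 6 and 25 it was 0.65 (adjusted p = 0.321), without NAc number 2 it was 0.54 (adjusted p = 0.491), and with 2 surrogate variables, terms estimated from the counts, it was 0.12 (adjusted p = 0.788).

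Thus 3 of 4 members were called in this comparison, in which 35.8% of the 19266 genes tested were called. The regional levels and their spread in every library are shown in the plot of the 4 genes by group.

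**Figure D2:**
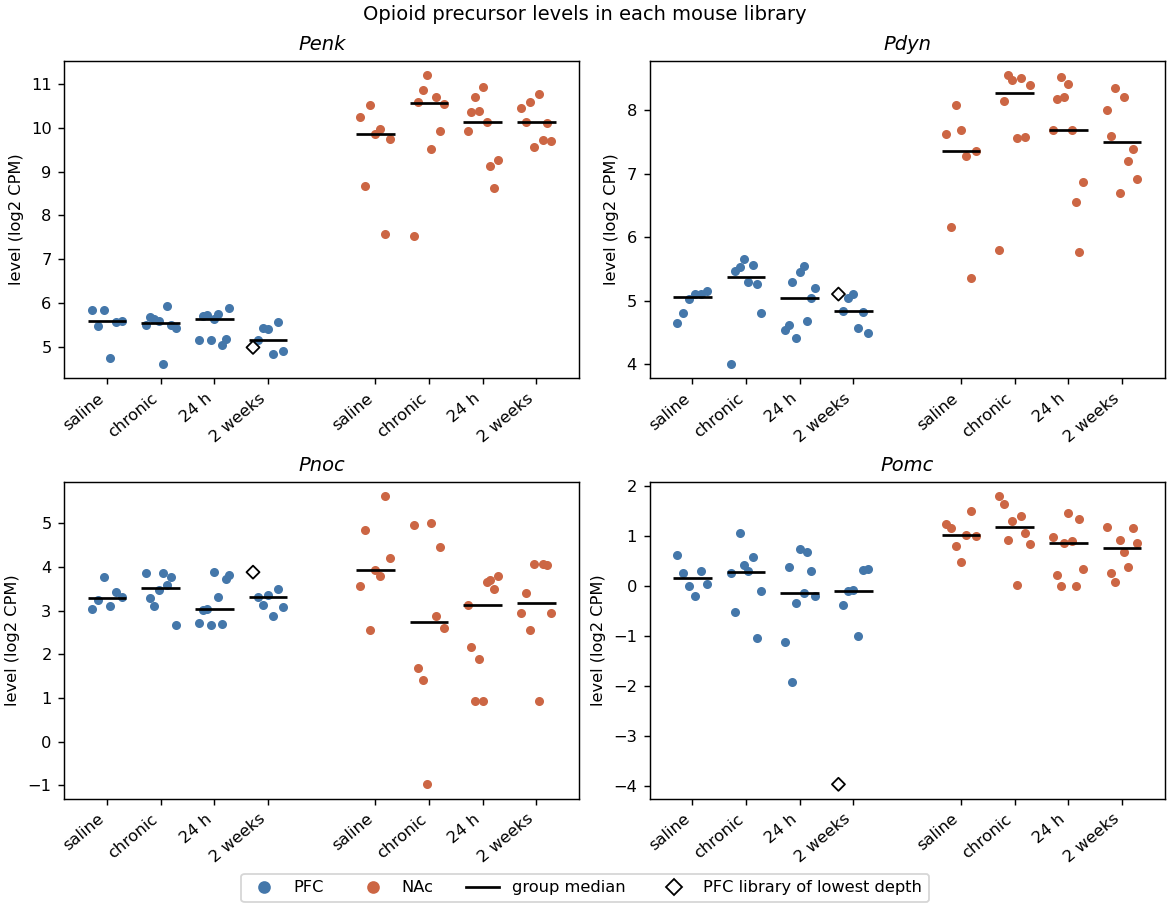
Level of each precursor in every mouse library (log2 CPM, prior count 2), by region and group, with black bars at the group medians and a diamond for the PFC library of lowest depth. Penk is separate between the regions, with 5.93 as the highest PFC and 7.52 as the lowest NAc value, while Pnoc spreads from -0.98 to 5.62 in NAc around PFC values of 2.67 to 3.88.

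The next comparison asked whether the precursors differed from saline at each stage in PFC. None of the 4 members was called at any stage, and the group ranges overlapped for every gene. Penk had medians of 5.58 log2 CPM in saline, 5.54 in chronic morphine, 5.63 at 24 h and 5.17 at 2 weeks. The lowest values of these groups were 4.74, 4.62, 5.05 and 4.84, and the highest were 5.85, 5.93, 5.89 and 5.56. The lowest saline value came from number 5 alone, with the next saline library at 5.49, above the 2-week median. The 2-week log2 fold change was -0.33 ± 0.18 (SE, 95% interval -0.70 to 0.04, edgeR adjusted p = 0.949). Leaving out 1 library moved it between -0.45 (without saline number 5) and -0.27 (without saline number 7), and it was not called in any of these fits. Pdyn had medians of 5.06, 5.38, 5.04 and 4.83 log2 CPM in the same order of groups. Its largest difference from saline was 0.27 ± 0.19 in chronic morphine (SE, 95% interval -0.12 to 0.67, edgeR adjusted p = 0.803). That value was 0.15 without number 27 and 0.45 without number 25.

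Pnoc in PFC had medians of 3.28, 3.53, 3.04 and 3.32 log2 CPM, and its log2 fold changes from saline were 0.16, -0.05 and 0.01 at the 3 stages. Pomc had medians of 0.15, 0.28, -0.15 and -0.11 log2 CPM, with log2 fold changes of 0.10, -0.20 and -0.42. PFC number 10 had no Pomc read among its 5182601 counts, which allows a level of up to 0.579 CPM by counting error alone, and without it the 2-week value was -0.21. With 2 surrogate variables that value was -0.04. Leaving out 1 library moved the chronic Pnoc value between 0.03 and 0.28 and the 24 h Pomc value between -0.45 and -0.04. The standard errors of the 12 PFC contrasts ran from 0.17 for Penk at 24 h to 0.46 for Pomc at 2 weeks. The share of all 17966 genes called was 0.417% in chronic morphine, 0.0779% at 24 h and 0.00557% at 2 weeks. Before adjustment, 0 of the 4 members had p under 0.05 at any PFC stage in edgeR or DESeq2. Of the 17966 genes, 1421, 545 and 902 had an unadjusted edgeR p under 0.05 in chronic morphine, at 24 h and at 2 weeks.

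In NAc the same contrasts called none of the 4 members. Penk and Pdyn had positive and Pnoc negative differences from saline at all 3 stages, with wide intervals. The 3 contrasts share the same saline libraries, so the like signs are not independent of each other. Penk had 7.58, 9.86 and 10.5 log2 CPM (lowest, median, highest) in saline, 7.52, 10.6 and 11.2 in chronic morphine, 8.63, 10.1 and 10.9 at 24 h and 9.56, 10.1 and 10.8 at 2 weeks. The groups overlapped, and the lowest saline and chronic libraries were numbers 6 and 25. The log2 fold changes were 0.57 ± 0.40 in chronic morphine (SE, 95% interval -0.25 to 1.38, edgeR adjusted p = 0.547), 0.30 at 24 h and 0.40 at 2 weeks. Leaving out 1 library moved them between 0.35 (without number 27) and 0.83 (without number 25) in chronic morphine. The values were 0.11 at 24 h and 0.21 at 2 weeks without saline number 2, and 0.48 and 0.58 without saline number 3. With 2 surrogate variables Penk had -0.011 in chronic morphine and -0.075 at 24 h.

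Pdyn had 5.37, 7.36 and 8.09 log2 CPM in saline, 5.79, 8.28 and 8.55 in chronic morphine, 5.77, 7.70 and 8.52 at 24 h and 6.70, 7.50 and 8.36 at 2 weeks. The chronic median lay above the highest saline library, while the ranges overlapped. Its log2 fold change there was 0.70 ± 0.40 (SE, 95% interval -0.13 to 1.52, edgeR adjusted p = 0.435), without number 27 it was 0.47, and with 2 surrogate variables it was 0.30. At 24 h and 2 weeks it was 0.42 and 0.29. They were 0.23 and 0.11 without saline number 2, 0.64 and 0.51 without saline number 3, and 0.02 and 0.08 with 2 surrogate variables.

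Pnoc had 2.56, 3.92 and 5.62 log2 CPM in saline, -0.98, 2.75 and 5.00 in chronic morphine, 0.92, 3.12 and 3.80 at 24 h and 0.93, 3.17 and 4.08 at 2 weeks. In chronic morphine the libraries spread from 14 to 1183 reads, and on the log2 scale this group was the widest of the 4 in NAc. The difference from saline was -1.43 ± 0.63 at 24 h (SE, 95% interval -2.72 to -0.14), and it did not pass adjustment (edgeR p = 0.0308, adjusted p = 0.362). It was -0.58 in chronic morphine and -0.89 at 2 weeks. The chronic value was -1.32 without NAc numbers 6 and 25, -1.62 without number 25 alone and -0.17 without saline number 2, none of them called. Without saline number 2 the values were -1.01 at 24 h and -0.47 at 2 weeks, and with 2 surrogate variables they were -0.63 and -0.04.

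Pomc had medians of 1.01, 1.18, 0.85 and 0.77 log2 CPM in the 4 NAc groups, on 24 or more reads per library. Its differences from saline were 0.18, -0.29 and -0.29, with standard errors of 0.24 to 0.25. Leaving out 1 library moved them between 0.10 and 0.30, -0.41 and -0.19, and -0.36 and -0.19. Across NAc the shares of all 18382 genes called were 1.69% in chronic morphine, 0.163% at 24 h and 0.00544% at 2 weeks. Pnoc at 24 h was the 1 member with p under 0.05 before adjustment in both edgeR and DESeq2. In that contrast 2209 of the 18382 genes had an unadjusted edgeR p under 0.05.

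The spread of Penk, Pdyn and Pnoc in NAc followed the level of striatal marker genes in the punch. A striatal score was made for each library as the mean z value of 7 genes of striatal projection neurons, among them Ppp1r1b, Rgs9, Pde10a, Adcy5, Rarb and Syndig1l, with no member among them. Fewer projection neurons in a punch and less of these RNAs per neuron cannot be told apart in such libraries. The score ran from -2.67 (number 6, saline) and -2.48 (number 25, chronic) to 1.40 (number 28, chronic). Group medians were 0.18 in saline, 0.52 in chronic morphine, 0.30 at 24 h and 0.03 at 2 weeks.

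Penk followed the score over the 32 NAc libraries with Pearson r = 0.985 and Spearman rho = 0.968. Pdyn did so with r = 0.934 and rho = 0.909, and Pnoc went the other way with r = -0.796 and rho = -0.878. For each of these the permutation p was 1e-05, which is the least that 100000 draws can reach, with an adjusted p of 3.33e-05 over 20 relations. Without numbers 6 and 25, r was 0.972, 0.903 and -0.781. Within the single treatment groups r ran from 0.910 to 0.993 for Penk, 0.835 to 0.989 for Pdyn and -0.952 to -0.801 for Pnoc. Pomc did not follow the score (r = -0.188, permutation p = 0.303, adjusted p = 0.472, and 0.133 without the same libraries).

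The members also moved with or against each other in NAc. Penk and Pdyn had r = 0.955 and rho = 0.945, and Penk and Pnoc r = -0.783 and rho = -0.864 (permutation p = 1e-05 for each, adjusted 3.33e-05). Without numbers 6 and 25 these were 0.951 and -0.776. In PFC the score and the precursors were not so tied, with r of Penk, Pdyn, Pnoc and Pomc against the score of -0.16, 0.14, 0.23 and 0.10 (adjusted p of 0.398 or more). Penk and Pdyn had r = 0.33 in PFC (permutation p = 0.0734, adjusted p = 0.183), and Pdyn and Pnoc r = 0.38 with rho = 0.46 (adjusted p = 0.114 for r and 0.030 for rho).

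**Figure D3:**
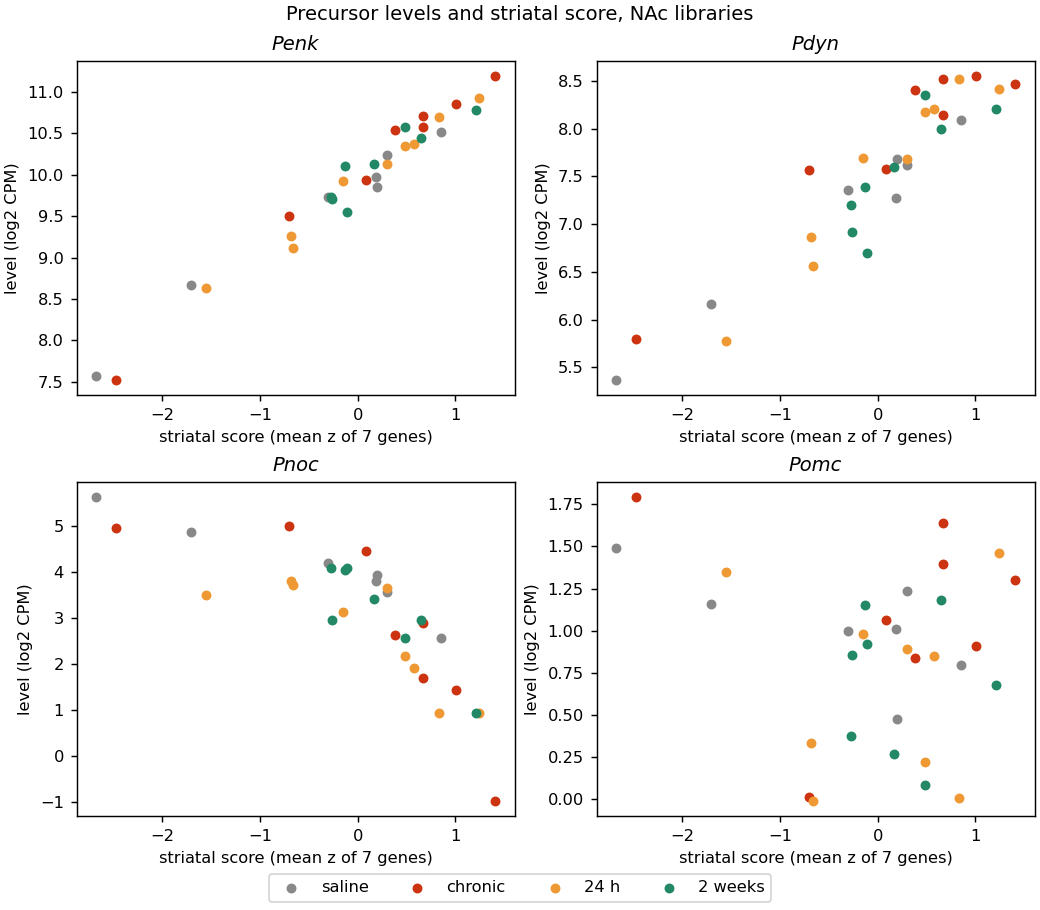
Level of each precursor (log2 CPM) against the striatal score (mean z value of 7 marker genes) in the 32 NAc libraries, coloured by group. Penk rises almost in a line with the score (r = 0.985), Pdyn rises (r = 0.934), Pnoc falls (r = -0.796) and Pomc shows no trend (r = -0.188).

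With the score as a covariate, the NAc stage differences of Penk shrank and their errors narrowed. Penk followed the score at r = 0.985, and the score came from the same libraries, taken after treatment. A stage difference shared by Penk and the score genes is therefore removed as well. This fit cannot show that such a difference was absent. The log2 fold change of Penk in this fit was 0.06 ± 0.08 in chronic morphine (SE, 95% interval -0.10 to 0.23), -0.01 at 24 h and 0.06 at 2 weeks. Pdyn had 0.33 ± 0.16 in chronic morphine (SE, 95% interval -0.00 to 0.66, edgeR adjusted p = 0.282), 0.10 at 24 h and -0.04 at 2 weeks. Pnoc had -0.58, -0.77 and -0.15, and Pomc 0.24, -0.22 and -0.21. None of the 4 was called in that fit, in which 3.99% of genes were called in chronic morphine, 0.462% at 24 h and 0.0653% at 2 weeks. In PFC each stage difference moved by less than its standard error.

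**Figure D4:**
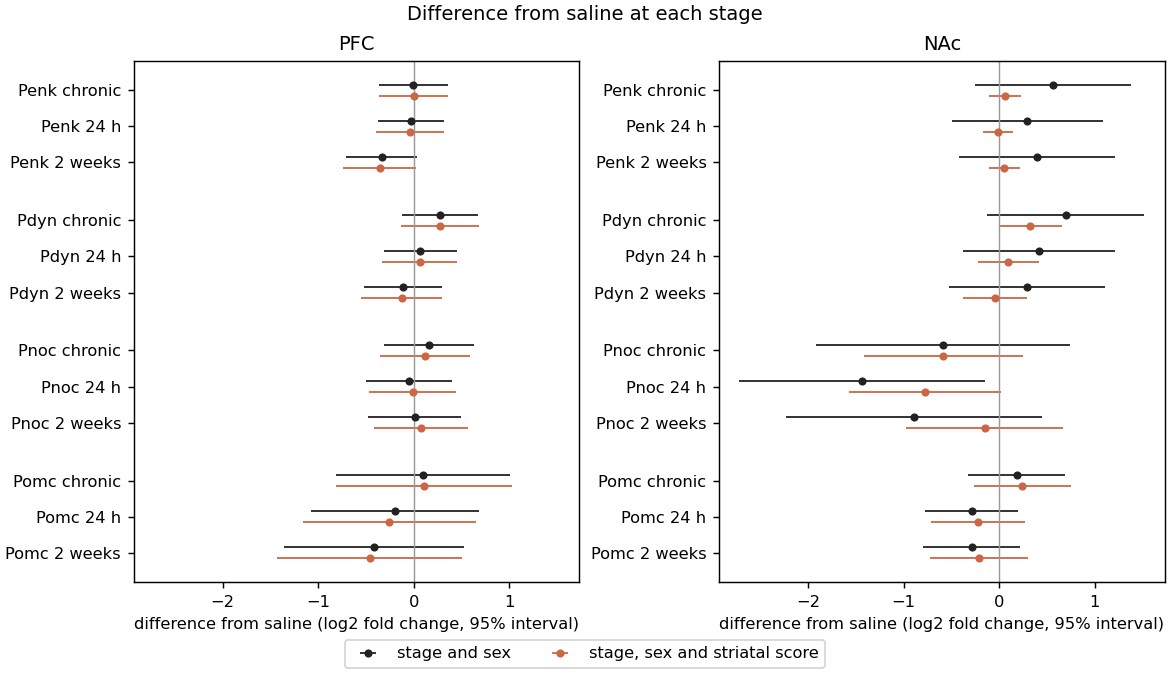
Difference from saline at each stage as log2 fold change with its 95% interval, for PFC and NAc, from the fit with stage and sex (black) and the fit that adds the striatal score (orange). In NAc the Penk values move from 0.57, 0.30 and 0.40 to 0.06, -0.01 and 0.06, and their intervals narrow, while the PFC values stay nearly where they were. A stage difference shared by Penk and the score genes is also removed in the orange fit.

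The genes most like each member were named as those with the highest r of deviations from the treatment-by-sex means, which is a description over libraries that share dissection and scaling. For Penk in NAc these were Gng7 (r = 0.993), Gpr6 (0.991), Gabrd (0.989), Tmem158 (0.988) and Serpina9 (0.988). Gng7 encodes a G protein gamma subunit abundant in striatum and Gpr6 a receptor of D2 projection neurons. For Pdyn they were Foxp2 (0.979), Sertad4 (0.977), Rarb (0.975), Strip2 (0.974) and Tmem158 (0.972), of which Foxp2 is a transcription factor of striatal projection neurons and Rarb belongs to the score. For Pnoc they were Pnma3 (0.969), Irs4 (0.967), Doc2a (0.967), Gng2 (0.957) and Resp18 (0.955). For Pomc the best was Myh7b at 0.739, followed by March11 at 0.636.

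In PFC the likeness was lower for Penk, led by Frzb at 0.755 and Dirc2 at 0.738. Pdyn was led by Dact2 at 0.876 and Rtn4r, the Nogo receptor, at 0.863, and Pnoc by Pdk2 at 0.857 and Pkm, a glycolytic enzyme, at 0.846. Without PFC number 10, Dact2 still led for Pdyn at 0.912 while Rtn4r was not among its 5 closest, and Capns1 led for Pnoc at 0.873, followed by Pkm at 0.868. For Pomc the value of its closest gene, Oxld1, was 0.908 with PFC number 10 and 0.780 without it. No gene was among the 5 closest of the same member in both regions.

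The marker lists showed this pattern gene by gene in NAc, with r again taken on deviations from the treatment-by-sex means. All 4 D2 markers in the table (Drd2, Adora2a, Gpr6, Sp9) correlated with Penk at 0.803 to 0.991 and with Pdyn at 0.851 to 0.936. Of the D1 markers, Drd1, Tac1 and Chrm4 correlated with Pdyn at 0.946, 0.947 and 0.950 and with Penk at 0.986, 0.935 and 0.969. Eya1, Isl1 and Sfxn1, also on the D1 list, had r of 0.436, 0.120 and -0.189 with Pdyn. With Penk these 3 had 0.507, 0.032 and -0.148. Both precursors followed the striatal score, so correlations over bulk libraries cannot show whether they divide by receptor class. Pnoc had r from -0.543 (Npy) to 0.942 (Calb2) with the 10 interneuron markers, with a median of 0.470. With 7 markers of hypothalamus and septum it had 0.231 (Agrp) to 0.942 (Gal), with a median of 0.516, and with 8 cortical glutamatergic markers 0.0839 (Fezf2) to 0.826 (Tbr1), with a median of 0.447. In number 6, which held the highest Pnoc (1506 reads), Drd1 was 3.18 log2 CPM, and in number 28, which held the lowest (14 reads), it was 8.18. The part of tissue from outside the NAc in the Pnoc values was not tested.

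**Figure D5:**
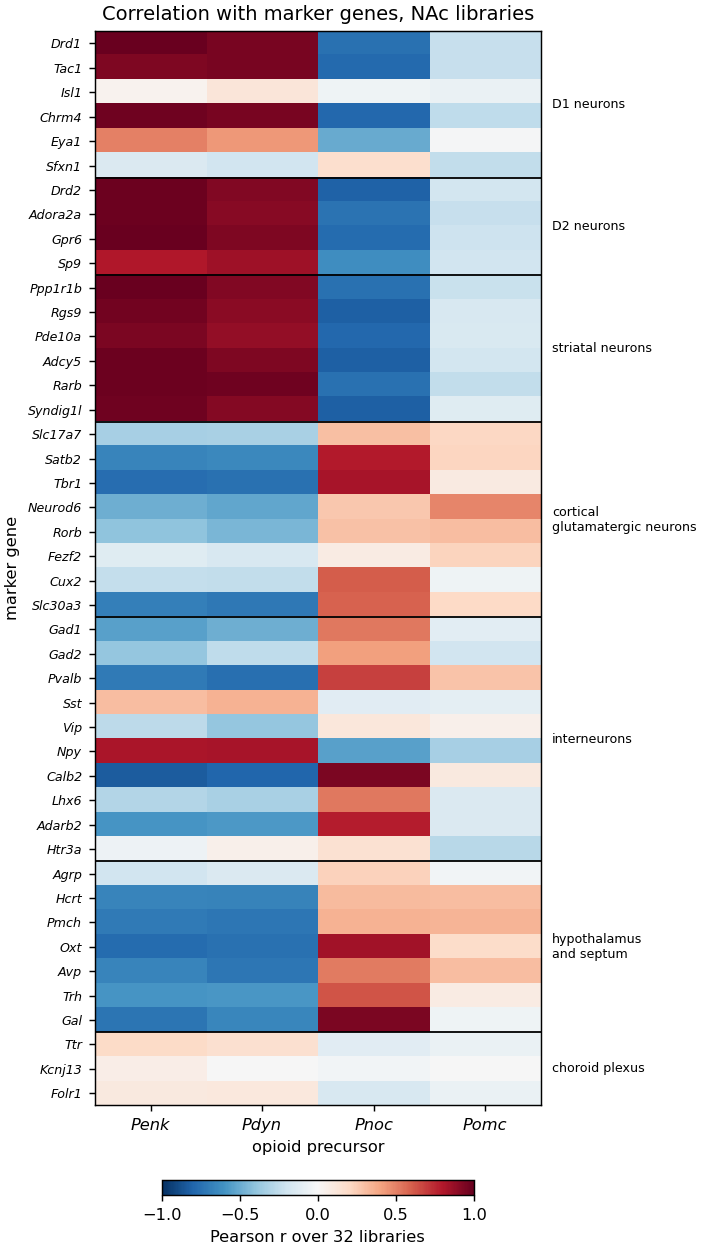
Pearson r over the 32 NAc libraries between each precursor (columns) and each marker gene shown (rows, grouped by list), from -1 in blue to 1 in red. It was taken on deviations from the treatment-by-sex means. Penk and Pdyn share high values with striatal markers (0.88 to 0.99), Pnoc has the opposite sign there, and Pomc has pale values throughout.

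Whether the stage differences differed between the regions was tested over both regions together. None of the 4 members was called (0.0363% of 19266 genes were), with edgeR adjusted p of 0.988 for Penk, 0.990 for Pdyn, 0.988 for Pnoc and 1 for Pomc. Before adjustment, 0 of 4 had p under 0.05 in edgeR or DESeq2, where 907 of 19266 genes did in edgeR. For Penk the NAc difference from saline exceeded the PFC one by 0.59, 0.34 and 0.74 in log2 at the 3 stages, and for Pnoc it was lower by values of -0.74, -1.37 and -0.89.

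The sexes were compared as the mean over the 4 treatments. In PFC none of the 4 was called, and the largest value was Penk at 0.16 ± 0.12 higher in females (log2, SE, edgeR adjusted p = 0.949), where 0.0334% of genes were called. In NAc none was called either, against 0.0598% of all genes. Pomc there was 0.34 ± 0.17 higher in females (SE, 95% interval -0.00 to 0.69, edgeR p = 0.0514, adjusted p = 0.922), and in DESeq2 it was the 1 member with p under 0.05 before adjustment. Without number 27 the Pomc value was 0.41. Of 18382 genes, 878 had an unadjusted edgeR p under 0.05 between the sexes in NAc. Penk in NAc was 0.26 and Pnoc -0.45 (females minus males), and with the score these were 0.01 and -0.35.

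A difference between the sexes in the stage effects was not detected for any member. The adjusted p was 0.9998 for all 4 in PFC, where 0% of genes were called (833 of 17966 had p under 0.05 before adjustment). In NAc it was 0.649 or more, where 0.0218% of genes were called (1743 of 18382 had p under 0.05 before adjustment). Before adjustment, 0 of 4 members had p under 0.05 in either region in edgeR or DESeq2.

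The partners of the precursors were described from 4 lists: the 4 opioid receptors, 11 genes of prohormone processing, 10 of opioid peptide breakdown and 12 other neuropeptides of the forebrain. All 37 genes were tested. Between the saline regions, 3 of 4 receptor genes were higher in NAc and none lower, with a list median of 1.84 against 0.05 for all genes (log2). Oprk1, the dynorphin receptor, was higher by 4.11 ± 0.39 and Oprm1, the mu receptor, by 2.80 ± 0.47 (log2, SE, edgeR adjusted p = 1.93e-12 and 2.32e-06). Of all 19266 genes, 3343 were called higher and 3549 lower, which is the 35.8% given above. Oprl1, the nociceptin receptor, was higher by 0.87 ± 0.19, and Oprd1, the delta receptor, had -0.54 ± 0.25 (SE, edgeR adjusted p = 0.087).

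Of the processing genes, 1 was higher and 6 lower in saline NAc, with a median of -0.31. The higher gene was Scg2, a granin of dense-core vesicles, at 1.81, and the lower ones were the granin Chgb (-1.37), the convertases Pcsk2 (-1.19), Pcsk1 (-1.06) and Furin (-0.91), the convertase inhibitor Pcsk1n (-0.43) and carboxypeptidase E, Cpe (-0.31). Of the breakdown genes, the peptidases Ece2 (1.89) and Mme, neprilysin (1.44), were higher, and Anpep, aminopeptidase N (-1.44), and Dpp3 (-0.39) were lower. These are 7 of 11 and 4 of 10 genes called.

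Of the 12 other neuropeptides, 11 were called. Gal, galanin, was higher by 8.23 ± 1.37 (log2, SE, edgeR adjusted p = 3.75e-06), with 69 to 1331 reads in saline NAc against 0 to 8 in saline PFC, where 4 of 6 libraries had none, so the size of this fitted value is uncertain. Gal is also on the list of hypothalamus and septum markers, and the part of tissue from outside the NAc in its value was not tested. Nts (5.34), Tac1 (3.77), Cartpt (3.17), Tac2 (2.99) and Crh (1.44) were also higher. Cck (-4.71), Vip (-3.74), Grp (-2.59), Adcyap1 (-2.40) and Npy (-0.66) were lower.

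None of these 37 genes was called in any of the 6 stage contrasts or in either sex contrast, and at most 2 genes of a list had an unadjusted p under 0.05 in a contrast. In NAc, Oprm1 had the largest receptor difference, at 0.56 ± 0.20 in chronic morphine and 0.50 ± 0.20 at 24 h (log2, SE, edgeR adjusted p = 0.162 and 0.315), and Oprd1 had 0.48 ± 0.22 at 2 weeks (adjusted p = 0.723). Oprl1 had negative values at the 3 stages, -0.18, -0.40 and -0.22, with an unadjusted p of 0.0867 or more. The receptor medians in NAc were 0.36, 0.25 and 0.20 at the 3 stages, with 1 of 4 genes under an unadjusted p of 0.05 at each. Of all 18382 genes, 2783, 2209 and 1170 were under it in edgeR at these stages. The medians of the processing genes in NAc were -0.00, -0.03 and -0.01, close to those of all genes (-0.01, -0.01 and 0.00). In PFC chronic morphine the receptor median was 0.52 with an SE of 0.68 for Oprm1 (0.80) and 0.49 for Oprk1 (0.66). Oprl1 there had 0.38 ± 0.12 (SE, edgeR p = 0.00298, adjusted p = 0.254) and was the 1 receptor gene under an unadjusted p of 0.05. In that contrast 1421 of all 17966 genes were under it. Of the other neuropeptides in NAc, Vip had 1.26 ± 0.50 and Tac2 -0.96 ± 0.62 in chronic morphine (SE, edgeR adjusted p = 0.206 and 0.500). Gal had -1.85 ± 0.81 at 24 h (SE, edgeR adjusted p = 0.359) and -0.90 at 2 weeks, and Grp -1.32 and -0.64 at the same stages.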

How the data were processed

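Raw counts for the 62 mouse libraries were deposited by the authors, as whole numbers of reads assigned to each gene. The submitters' processing notes name GRCm38, STAR, HISAT2, RSEM, cutadapt, Trimmomatic and FastQC with no role or version, and the counting program, its annotation and its use of strand are not given in the sources used here. Reads given to no gene (median 5.43% outside genes, 0.832% ambiguous, 14.7% not unique) stayed out of library sizes. Exon lengths and coding models came from GENCODE M21. Symbols came from a separate list of gene names, which matched 45143 of 46078 identifiers. Rat libraries were not used here.

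Genes were filtered and tested with edgeR 4.0.16 (R 4.3.3, limma 3.58.1): TMM scaling, a coefficient per treatment and sex within a region (per region too for tests over both), quasi-likelihood tests, and Benjamini-Hochberg adjustment over all genes tested, with calls at 0.05. Log2 CPM used a prior count of 2. Intervals are 95% from the fitted error. The fits were also run on simulated counts with the same dispersion for every gene and no differences in sex or punch content. Such counts cannot test the fits at the spread that the members had in NAc. Alternatives were RLE scaling, no filter, DESeq2 1.42.0, 2 surrogate variables (sva 3.50.0), the striatal score, no sex term, a replicate block, saline libraries alone and leaving out libraries. Leaving out NAc numbers 6 and 25, and PFC number 10 in the sex and interaction tests, was chosen after seeing the data. A gene of the striatal score is not reported here by name. The members, lists and score were chosen with earlier results of these data known. The members were named in every comparison. Other list genes could be named only where called or among the 2 largest changes of their list, apart from Oprl1 and Oprd1, which were added after their values were seen. Genes most like a member were the 5 closest genes by correlation among tested genes with a mean log2 CPM of at least 1.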

Additional observations from a re-analysis of the deposited data

Results flagged for a closer look

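Dixon's rule on the gap of an extreme library, applied to the 4 members in the 8 groups, marked 5 of 32 sets of values, and chance marks about 1 in 20. In NAc under chronic morphine, number 25 was far below the others for Penk (7.52 log2 CPM, next 9.505) and Pdyn (5.79, next 7.57). Its striatal score of -2.48 was the second lowest of the 32 NAc libraries.

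Penk in PFC was low in number 29 (chronic, 4.62 log2 CPM, next 5.42) and in number 5 (saline, 4.74, next 5.49). Pomc in PFC at 2 weeks was at -3.96 log2 CPM in number 10, which had no Pomc read and the lowest total of counts (next -0.99).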

How the results depend on the processing

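Outside the saline region comparison, 44 results were recomputed under 1072 alternatives in all, and 0 of these called a member. Penk and Pdyn were called between the saline regions under all alternatives run, and Pnoc under none of them. The Pomc region difference was 0.92 (adjusted p = 0.062) with no low-count filter and 0.83 without NAc numbers 6 and 25, neither called, and 0.82 to 1.003 when 1 saline library was left out, called in 4 of 13 cases; the cause was not tested.

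Signs turned only for differences that were not called. With 2 surrogate variables, NAc Penk had -0.011 in chronic morphine and -0.075 at 24 h, NAc Pdyn -0.063 between the sexes, PFC Penk 0.13 in chronic morphine and PFC Pnoc -0.094 at 2 weeks. With the striatal score, NAc Penk at 24 h had -0.014, NAc Pdyn -0.043 at 2 weeks and -0.011 between the sexes, and PFC Penk 0.00022 in chronic morphine. With no sex term PFC Pnoc had -0.011 at 2 weeks, and without number 27 PFC Pomc had -0.17 in chronic morphine. Leaving out 1 PFC library moved Penk between -0.12 and 0.066 in chronic morphine and -0.15 and 0.032 at 24 h, Pnoc between -0.18 and 0.070 at 24 h and -0.10 and 0.13 at 2 weeks, and Pomc between -0.17 and 0.25 in chronic morphine.

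The labels do not tie library numbers to mice, and deviations of same-numbered PFC and NAc libraries correlated at 0.01 to 0.22 (over 0.1 in 5 of 30). With the replicate number as a block, the saline differences were 3.96 for Penk, 2.03 for Pdyn, 0.79 for Pnoc and 0.99 for Pomc (adjusted p = 0.0491), and 14 of 30 PFC libraries correlated best with their own number. The block changed no call of a member.

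Counts of genes called over the whole table moved more than the members did. Over the alternatives, single libraries left out included where run, they ran from 0.62% of the genes tested (without number 27) to 909 genes (surrogate variables) in NAc chronic morphine against 310 genes or 1.69%, 3 to 216 at 24 h against 30, and 1 to 41 (DESeq2) at 2 weeks against 1. In PFC they ran from 44 genes to 0.974% of those tested (DESeq2) against 75 genes or 0.417%, 11 to 49 against 14 and 0 to 12 against 1. For sex by stage they reached 96 against 4 in NAc and 48 against 0 in PFC (DESeq2 for both), for region by stage they ran from 4 (block) to 29 (DESeq2) against 7, and for female minus male in PFC from 5 to 10 against 6. Depth was lowest for Pomc in PFC (0 to 81 reads), and Pnoc in NAc went down to 14 reads.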
